A study of Mus musculus with 16 samples.

Results

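The miR-221 and miR-222 pair was described here over 16 arrays, by the 2 rows that the array design names mmu-miR-221 and mmu-miR-222, out of 611 mouse miRNAs on the array and 235 that were tested. Total RNA of primary mouse embryonic fibroblasts (MEFs) was labeled with Cy3 and hybridized to one-colour Agilent mouse miRNA arrays, 2 arrays in each of 8 groups. The later groups were Ercc1-/- MEFs at passage 7 (P7) in 20% O2, Ercc1-/- P7 in 3% O2, WT P7 in 20% O2 and WT P7 in 3% O2, and the earlier groups were Ercc1-/- at passage 3 (P3) in 20% and in 3% O2 and WT P3 in 20% and in 3% O2. Ercc1 encodes a subunit of the XPF-ERCC1 nuclease of DNA repair, its deletion was carried in all cells of the Ercc1-/- cultures, and all cultures were primary, non-immortalized cells from embryos of a mixed C57Bl/6 and FVB/n background. The question was which miRNAs differ as such cells are passaged in a high or a low oxygen concentration, with and without this repair enzyme. The methods name 2 independent cell lines, so that the 8 arrays of a genotype come from only 2 embryonic cultures. The arrays measure miRNAs only, so that the loss of Ercc1 could not be checked on them.

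The miRNAs miR-221 and miR-222 are processed from neighbouring hairpins that are taken to be cut from a shared primary transcript. They act through the same seed, the bases near the 5′ end of a miRNA that pair with a target mRNA, and are best known for repressing p27 (Cdkn1b), a Cip/Kip inhibitor of cyclin-dependent kinases that restrains entry into the cell cycle. In proliferating cultured cells the pair is usually plentiful, and human tumors often overexpress it. Fibroblasts that are passaged in a high oxygen concentration slow down and senesce, a state in which such inhibitors accumulate.

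The mature sequences below show what the pair shares, with the seed (bases 2 to 8) in capitals. The array names carry no arm, and the 3p arm of RefSeq was taken as the one named.
mmu-miR-221-3p: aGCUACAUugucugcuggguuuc
mmu-miR-222-3p: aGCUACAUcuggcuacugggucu
Both sequences are 23 bases long and are identical over the first 8 bases, which hold the whole seed, and at 11 positions in all when they are aligned from the 5′ end. Of 1679 mature mouse miRNAs in the RefSeq table, 1 other, miR-1928, carries this seed, and it is not on the array. In GRCm38.p6 both hairpins lie on the minus strand of the X chromosome, Mir221 at chrX:19146294-19146388 and Mir222 at chrX:19146893-19146971. They are 504 bases apart. No other annotated gene overlaps them, so that both are intergenic in this annotation.

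The signal of a miRNA is the mean of its background-subtracted spot intensities, scaled so that the 57 miRNAs found above background on each of the 16 arrays average the same on the log2 scale, and is given as log2. Each member has 2 probes with 10 spots each. Over all arrays, 13 of 640 spots of the pair were marked as outliers and left out, and 0 were saturated. Each member was above background on 15 of 16 arrays. The exception was an Ercc1-/- P7 20% O2 array (replicate 2) for miR-221 and a WT P3 20% O2 array (replicate 2) for miR-222. The median coefficient of variation over the spots of a probe lay between 7.91% and 10.1%. The largest on any array was 129%, for a probe of miR-221. Signals of different probes cannot be set against each other, so that only changes, and never levels, are compared between miR-221 and miR-222.

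The arrays differed in brightness. Before scaling, their mean log2 signal over the 57 miRNAs lay between 7.91 and 9.29 at P7 and between 9.31 and 9.77 at P3 for replicate 1, and between 5.80 and 7.99 at P7 and between 6.98 and 8.65 at P3 for replicate 2. The replicate number is also the slide, and each slide holds all 8 groups. On both slides the P7 arrays lie in row 2 and the P3 arrays in row 1, so that passage and position on the slide cannot be told apart. Of 9 miRNAs abundant in fibroblasts and other mesenchymal cells, 6 were above background on all arrays and between 7 and 9 on any one, with a summed scaled signal between 2207 and 20020 at P7 and between 12590 and 17940 at P3. With passage, 1 of these 9 was called higher and 4 lower, with a median change of −1.06 beside −0.39 over all miRNAs. None of 6 epithelial and 2 endothelial markers was above background on any array. The summed signal of 6 blood markers, of which up to 3 were above background on an array, lay between 16.9 and 101 at P7 and between 18.8 and 76.2 at P3. Of 4 muscle, 4 neural and 5 embryonic stem cell markers, up to 1 of each list was above background on an array. Their summed signals lay between 11.3 and 31.2 at P7 and between 11.3 and 12.7 at P3 for muscle, at 11.3 at P7 and between 11.3 and 18.5 at P3 for neural, and between 14.1 and 60.2 at P7 and between 14.1 and 94.6 at P3 for embryonic stem cells. The part of these marker lists in the results below was not tested.

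With passage, miR-222 rose. In Ercc1-/- MEFs at P7, miR-222 stood at 5.48 and 6.01 (replicates 1 and 2) in 20% O2 and at 6.13 and 6.35 in 3% O2. In Ercc1-/- MEFs at P3 it stood at 3.71 and 3.99 in 20% O2 and at 4.32 and 3.80 in 3% O2. All 4 Ercc1-/- arrays of P7 were therefore above all 4 of P3. In WT MEFs at P7, miR-222 stood at 5.03 and 6.34 in 20% O2 and at 6.56 and 6.16 in 3% O2. In WT MEFs at P3 it stood at 4.97 and 3.44 in 20% O2 and at 5.05 and 4.20 in 3% O2. In WT the passages overlapped at 1 point, where the 20% O2 array of P7 on slide 1 lay just under the 3% O2 array of P3 on that slide. When each P7 array was set against the P3 array of the same genotype, oxygen and replicate number, miR-222 was higher at P7 in 8 of 8 pairs, by 0.07 to 2.90.

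Averaged over genotype and oxygen, miR-222 was 6.01 at P7 and 4.18 at P3, a change of 1.82 ± 0.33 on the log2 scale (SE, 8 arrays per passage), or 3.54-fold, with an adjusted p of 0.00379 (limma over 235 miRNAs, Benjamini-Hochberg). It was the 9th of these miRNAs by p. In bulk RNA of a culture, fewer cells that hold a miRNA and less of it per cell cannot be told apart. Many miRNAs moved with passage, since 54.9% of those tested passed the same threshold, 53 of them higher and 76 lower at P7, with a median change of −0.39. The share of higher calls among all calls, 41.1%, was between 13.6% without scaling and 51.6% with scaling to the 75th percentile. Relative to the median of all miRNAs tested, miR-222 rose by 2.21. The change was 1.29 within slide 1 and 2.36 within slide 2. Without scaling between arrays it was 0.90, with an adjusted p of 0.302, and relative to the median of all miRNAs it then was 2.04.

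For miR-221 the passage change pointed the other way and did not pass the threshold. In Ercc1-/- MEFs at P7, miR-221 stood at 6.59 and 3.74 (replicates 1 and 2) in 20% O2 and at 5.52 and 4.57 in 3% O2. In Ercc1-/- MEFs at P3 it stood at 6.35 and 5.94 in 20% O2 and at 6.60 and 6.09 in 3% O2. In WT MEFs at P7, it stood at 6.59 and 4.88 in 20% O2 and at 6.62 and 5.16 in 3% O2. In WT MEFs at P3 it stood at 6.71 and 6.26 in 20% O2 and at 6.42 and 6.11 in 3% O2. The 8 arrays of P3 lay close together, between 5.94 and 6.71, whereas those of P7 fell apart by slide. On slide 1, 3 of 4 arrays of P7 lay within the range of the P3 arrays, and on slide 2 all 4 lay under it. In matched pairs of arrays, miR-221 was lower at P7 in 6 of 8, and the differences ran between −2.20 and 0.23.

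Averaged over genotype and oxygen, miR-221 was 5.46 at P7 and 6.31 at P3, a change of −0.86 ± 0.46 (SE, 8 arrays per passage) with an adjusted p of 0.123 (limma), and 164th of 235 by p. Its 95% interval lay between −1.85 and 0.14. The change was −0.20 within slide 1 and −1.51 within slide 2. When the replicate number was fitted as a block, the adjusted p was 0.0343, in a fit that called 160 of all 235 miRNAs (68.1%). Genotype and replicate number were also fitted as a random block, to stand for the cell line, which the sample labels do not name. With the correlation of this block estimated, the adjusted p was 0.0701. Without the Ercc1-/- P7 20% O2 array of replicate 1 the change was −1.21, with an adjusted p of 0.00966, and without that of replicate 2, on which miR-221 was not above background, it was −0.50, with an adjusted p of 0.242. With normexp background correction the sign turned, to a change of 0.03.

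**Figure D1:**
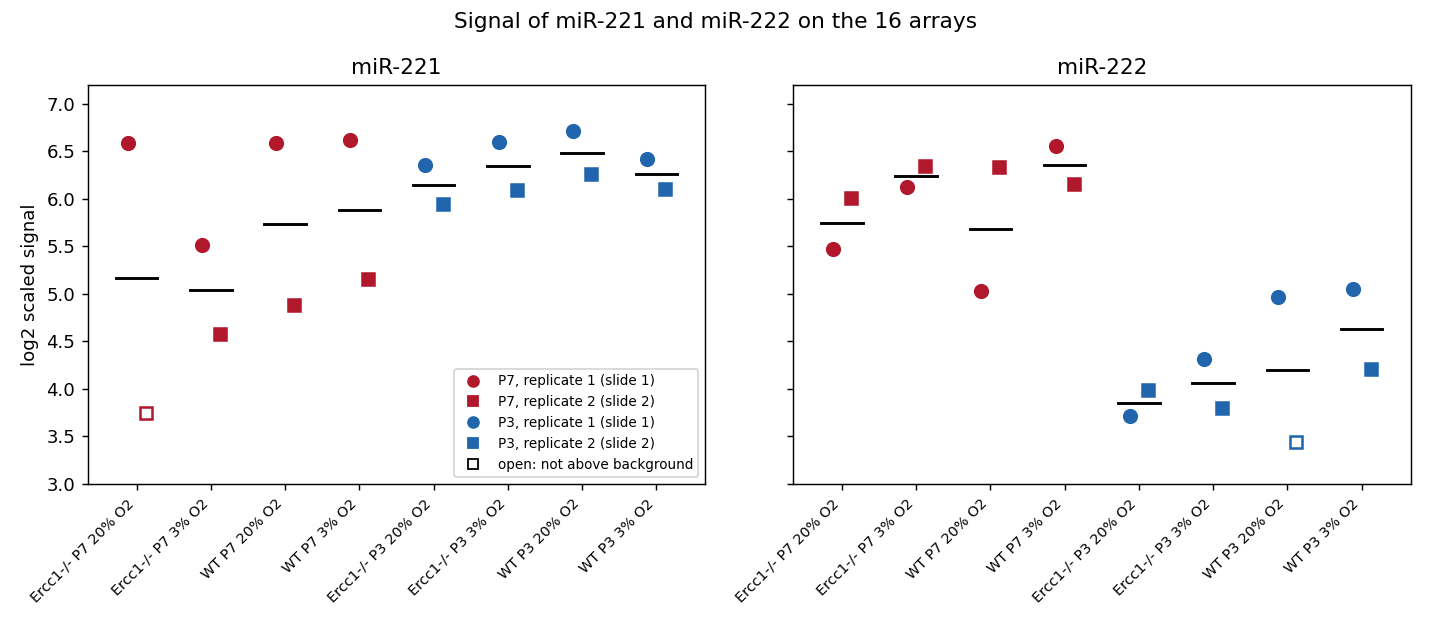
Log2 scaled signal (vertical axis) of miR-221 (left) and miR-222 (right) on each array, by group (horizontal axis). Points are arrays, circles slide 1 and squares slide 2, red P7 and blue P3, bars are means of 2 arrays, and open points were not above background; miR-222 is higher at P7, while miR-221 at P7 splits by slide.

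Ordered by mean level, the highest group of miR-222 was WT P7 3% O2, at 6.36 ± 0.28 (SD, n = 2), and the lowest Ercc1-/- P3 20% O2, at 3.85 ± 0.20. All 4 groups of P7 were above all 4 of P3. The step between the passages, 1.06 between WT P7 20% O2 and WT P3 3% O2, was wider than the pooled SD of those groups, 0.78. Within a passage, only the step between Ercc1-/- P7 20% O2 and Ercc1-/- P7 3% O2, 0.50, was wider than its pooled SD, 0.29, and the other 5 were not. For miR-221 the order was the reverse by passage, with all 4 groups of P7 under all 4 of P3, the lowest being Ercc1-/- P7 3% O2 at 5.04 ± 0.67 and the highest WT P3 20% O2 at 6.49 ± 0.32. None of its 7 steps was wider than the pooled SD of its groups.

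The same passage comparison was made within each genotype and oxygen concentration, where 4 arrays carry it. The change of miR-222 was 1.89 in Ercc1-/- MEFs in 20% O2 (adjusted p = 0.0990, limma), 2.18 in Ercc1-/- in 3% O2 (0.0808), 1.48 in WT in 20% O2 (0.542) and 1.73 in WT in 3% O2 (0.575). None passed the threshold, although each had an unadjusted p below it. The shares of all miRNAs called in these comparisons were 1.28% in 20% O2 for both genotypes and 0% in 3% O2 for both. With the replicate block the change in Ercc1-/- MEFs in 3% O2 had an adjusted p of 0.0421, where 43 of all 235 miRNAs (18.3%) were called, against 0 without the block. For miR-221 these changes in the same order were −0.98, −1.30, −0.75 and −0.38, with adjusted p between 0.298 and 0.833.

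Ercc1-/- P7 20% O2 was also compared with WT P3 3% O2, groups that differ in genotype, passage and oxygen at once. There miR-222 differed by 1.11 (adjusted p = 0.227, limma) and miR-221 by −1.10 (adjusted p = 0.336), and 2.55% of all miRNAs were called. The passage change of neither member was shown to differ between the genotypes or between oxygen concentrations, with differences of −0.58 and 0.43 between genotypes for miR-221 and miR-222 (adjusted p = 0.787 for both, limma interaction term). No miRNA passed the threshold in any of the 3 comparisons of changes (0%), in which 11, 2 and 0 miRNAs had an unadjusted p under 0.05.

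Neither genotype nor oxygen gave a called change of either member. Averaged over passage and oxygen, miR-221 was 5.68 in Ercc1-/- and 6.09 in WT MEFs, a change of −0.42 ± 0.46 (SE, 95% interval −1.41 to 0.58), and miR-222 was 4.97 in Ercc1-/- and 5.22 in WT, a change of −0.25 ± 0.33 (interval −0.97 to 0.47). Both adjusted p were 0.933 (limma), and 1.7% of all miRNAs were called. Averaged over genotype and passage, miR-221 was 5.88 in 20% and 5.89 in 3% O2, a change of −0.0025 ± 0.46 (interval −0.999 to 0.99) that had no stable sign. Likewise miR-222 was 4.87 in 20% and 5.32 in 3% O2, a change of −0.45 ± 0.33 (interval −1.17 to 0.27). Both adjusted p were over 0.999, and 0.851% of all miRNAs were called. In the 8 comparisons of genotype or oxygen between single groups, neither member was called, with changes between −0.84 and 0.22 for miR-221 and between −0.68 and 0.06 for miR-222, and up to 0.851% of all miRNAs were called in any of them, with 0.426% for genotype at P7 in 20% O2.

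The 2 members moved apart with passage, which was tested on the difference between their log2 signals on the same array, where a factor common to the array cancels. This difference is not a ratio of abundances, and only how it changes can be read. At P7 it was 1.11 and −2.27 (replicates 1 and 2) in Ercc1-/- MEFs in 20% O2 and −0.61 and −1.78 in 3% O2, and in WT MEFs it was 1.56 and −1.46 in 20% O2 and 0.06 and −1.01 in 3% O2. At P3 it was 2.64 and 1.95 in Ercc1-/- MEFs in 20% O2 and 2.29 and 2.29 in 3% O2, and in WT MEFs it was 1.75 and 2.82 in 20% O2 and 1.37 and 1.91 in 3% O2. The WT P7 20% O2 array of replicate 1 was alone in lying within the range of the P3 arrays.

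The mean difference was −0.55 ± 1.37 at P7 and 2.13 ± 0.48 at P3 (SD, n = 8 arrays each), a shift of −2.68, or a 6.39-fold unequal change (exact two-sided permutation test, p = 0.000311, 0.000932 after Benjamini-Hochberg adjustment over 3 tests). It was lower at P7 in 8 of 8 matched pairs of arrays, by 0.19 to 4.28. Arrays of a cell line are not independent. The sample labels do not name the line of an array, so that genotype and replicate number were taken to stand for it. With passage permuted only within these, p remained under the threshold (exact, 0.00309, adjusted 0.00617 over 2 tests). It did so too within the replicate number as a block (exact, adjusted p = 0.00245). Whether these tests hold the cell line is not known. The differences between replicates correlated between groups within a passage (median r = 0.61 within P3 and 0.81 within P7), and at 0.03 between passages. Arrays of one passage on one slide are therefore not independent either, and none of these permutations holds this. The shift was −1.48 within slide 1 and −3.87 within slide 2. By genotype the difference was 0.70 in Ercc1-/- and 0.87 in WT MEFs (exact permutation test, adjusted p = 0.842), and by oxygen it was 1.01 in 20% and 0.57 in 3% O2 (exact, adjusted p = 0.842).

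**Figure D2:**
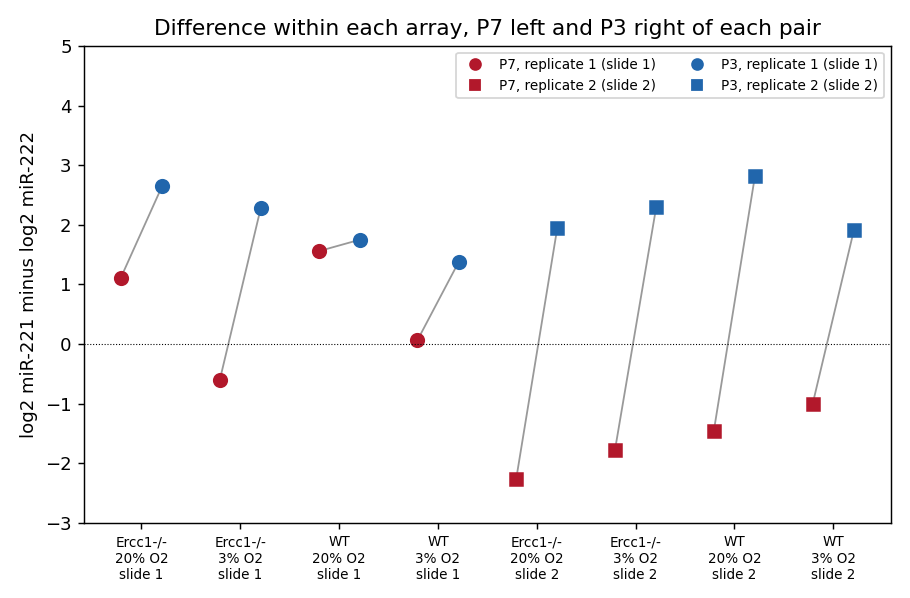
Difference between the log2 signals of miR-221 and miR-222 on the same array (vertical axis), with a line joining the P7 array (left) to the P3 array (right) of the same genotype, oxygen and slide (horizontal axis). The P7 array is the lower one in all 8 pairs, and the lines are steeper on slide 2.

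The brightness of the arrays moved with this difference. Over the 8 arrays of P7, it correlated with the mean log2 signal of the array before scaling at r = 0.94, and over the 8 of P3 at r = −0.39. These are descriptions over arrays that share slides and cell lines. At like brightness the passages were close in one place and far apart in another. Near the bright end, the WT P7 20% O2 array of slide 1 (brightness 9.29) had a difference of 1.56, and the WT P3 arrays of slide 1 in 20% and 3% O2 (9.34 and 9.31) had 1.75 and 1.37. Near the dim end, the WT P7 20% O2 array of slide 2 (7.08) had −1.46, and the WT P3 20% O2 array of slide 2 (6.98), on which miR-222 was not above background, had 2.82. By member, the scaled signal of miR-221 at P7 followed brightness at r = 0.98, that of miR-222 at r = −0.46. The part of brightness in the passage result was not tested beyond these values.

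**Figure D3:**
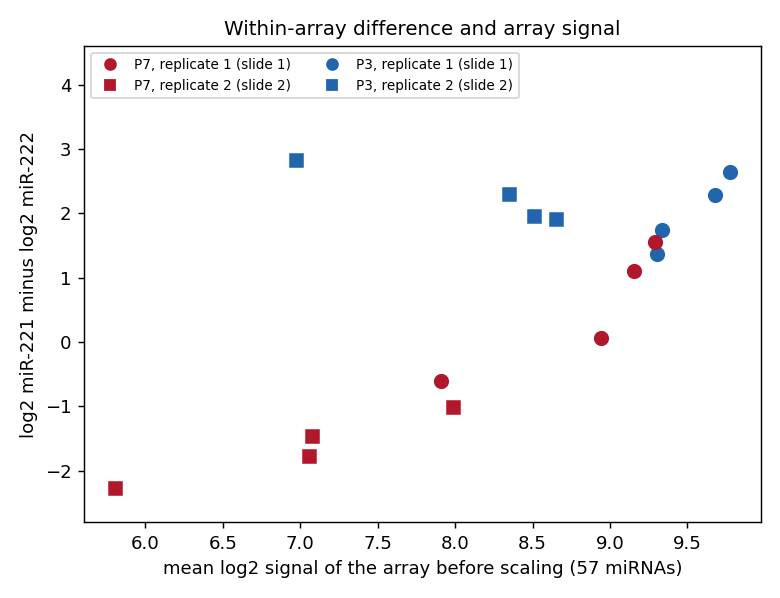
Difference between the log2 signals of miR-221 and miR-222 (vertical axis) against the mean log2 signal of the array before scaling (horizontal axis), one point per array. The P7 arrays (red) lie along a rising line, and the P3 arrays (blue) lie between 1.37 and 2.82. Apart from the WT P3 20% O2 array of slide 2 (6.98), the P3 arrays have a brightness of 8.35 or more, so that they do not span the range of P7.

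Both probes of a member gave its change the same sign. The probes of miR-222, A_54_P2643 and A_54_P2644, gave rises with passage of 1.87 and 1.79, and those of miR-221, A_54_P2640 and A_54_P3830, gave changes of −0.61 and −1.02. Over the 16 arrays the signals of the 2 probes of miR-222 correlated at r = 0.99 and those of miR-221 at r = 0.97. Across the members, r ran between −0.55 and −0.41 for the 4 pairs of probes. A_54_P2640 and A_54_P2643 were above background on 13 of 16 arrays, A_54_P3830 and A_54_P2644 on 15. Among the P7 arrays of slide 2, A_54_P2640 was above background only in WT 3% O2.

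How closely the pair moved together over the arrays depended on what was compared. Over all 16 arrays Pearson's r was −0.51 and Spearman's rho −0.25, and without the 2 arrays farthest from the median of miR-221 r was −0.39. Over the 8 group means r was −0.79. Within the 8 arrays of P7 r was −0.42, and within those of P3 it was 0.58. Within slide 1 r was −0.28 and within slide 2 it was −0.87. Without scaling between arrays r was 0.51. Among the 234 other tested miRNAs ordered by r, miR-222 was 158th for miR-221, and miR-221 was 141st for miR-222. These correlations are descriptions over arrays that share slides, cell lines and the scale of the array.

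**Figure D4:**
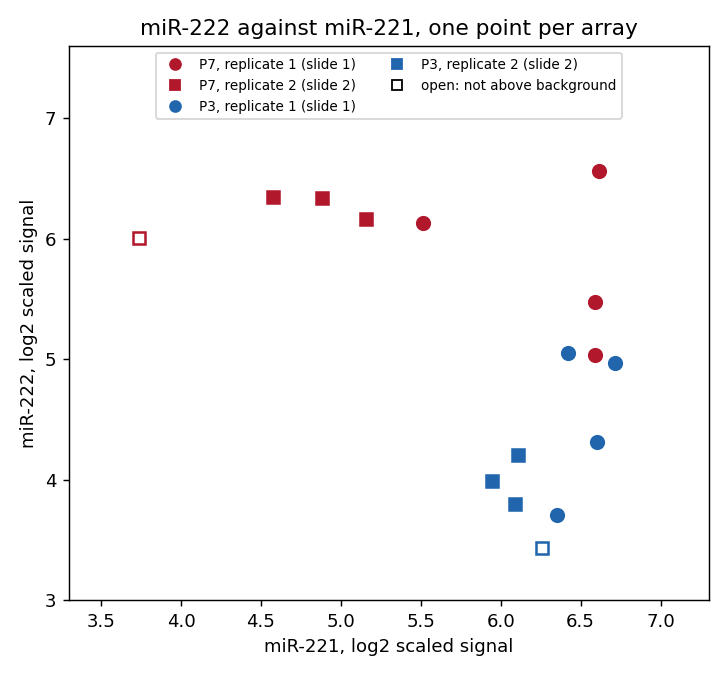
Log2 scaled signal of miR-222 (vertical axis) against that of miR-221 (horizontal axis), one point per array, red P7 and blue P3, circles slide 1 and squares slide 2, with open points where a member was not above background. The P3 arrays cluster at high miR-221 and low miR-222, and those of P7 spread along a band of high miR-222.

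By the mean of both r over 16 arrays, miR-136 (0.37), miR-29c (0.36), miR-24 (0.35), miR-26a (0.34) and miR-185 (0.32) ranked highest. The lowest were miR-351 (−0.35), miR-467a* (−0.34) and miR-149 (−0.32). A high mean did not require likeness to both members. With miR-221 and miR-222 in turn, r was 0.82 and −0.15 for miR-26a, 0.76 and −0.12 for miR-185, and 0.64 and 0.09 for miR-29c. It was 0.48 and 0.22 for miR-24, and 0.38 and 0.36 for miR-136. Member by member, chosen after their values were seen, miR-23b (r = 0.95), miR-411 (0.94) and miR-376c (0.94) were closest to miR-221, and miR-494 (0.88), miR-24-2* (0.87) and miR-690 (0.85) to miR-222.

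Other miRNAs of neighbouring hairpins were described in the same way, a comparison added after the values were seen. Only the 164 of 235 tested miRNAs whose name matched a single hairpin were considered, so that some neighbours are left out. Besides miR-221 and miR-222, 225 pairs of 69 of these miRNAs have hairpins within 10000 bases on one strand. Over all 225 the median r over 16 arrays was 0.42, 101 were under 0, and 69 were lower than that of miR-221 with miR-222. The passage changes of a pair differed by a median of 1.22, against 2.68 for miR-221 and miR-222, and by more than this in 37 pairs. Most of the pairs, 190, fell on chromosome 12, where the median r was 0.11, 92 were under 0, and 65 were lower than that of miR-221 with miR-222. In the 35 pairs on other chromosomes the median r was 0.79, 9 were under 0, and 4 were lower, and the passage changes differed by a median of 1.04 and by more than 2.68 in 5 pairs. In 46 of the 225 pairs both members were above background on at least 15 arrays, as miR-221 and miR-222 were. There the median r was 0.60, 18 were under 0, and 8 were lower than that of miR-221 with miR-222. Their passage changes differed by a median of 0.91 and by more than 2.68 in 3 pairs. All these pairs overlap in their members, some through both arms of a hairpin, and are not independent.

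Other miRNAs have also been described as targeting Cip/Kip inhibitors. Of 13 listed, 12 were on the array and 10 were tested, of which 0 were called higher and 4 lower at P7, where 54.9% of all miRNAs were called (53 higher and 76 lower of 235). Their median change was −0.64 beside −0.39 over all miRNAs. The 4 were miR-148a (−2.63), described for p27, miR-20a (−2.01) and miR-20b (−1.42), described for p21, and miR-196a (−0.99), described for p27 (adjusted p = 0.0207, 0.0201, 0.0300 and 0.0297, limma). The last was also the only one called by genotype, with a change of −2.51 in Ercc1-/- relative to WT MEFs (adjusted p = 0.00294), where 1.7% of all miRNAs were called.

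The other miRNAs of the X chromosome, where the pair lies, were more often called lower than higher at P7. Of 52 listed, 49 were on the array and 20 were tested, 1 called higher and 12 lower (all miRNAs, 53 higher and 76 lower of 235), with a median change of −1.22. The one that rose was miR-188-5p, by 3.81 (adjusted p = 0.0108), and among the 12 that fell the largest changes were those of miR-322 (−3.64), miR-450a-5p (−2.74) and miR-98, a member of the let-7 family (−2.50; adjusted p = 0.00314, 0.00568 and 0.00639, limma). Among the 12 that fell, miR-322, miR-322*, miR-503, miR-450b-3p, miR-542-3p and miR-542-5p have hairpins within 6176 bases of each other on one strand. They include both arms of the miR-322 hairpin and of the miR-542 hairpin. Distances were taken only for miRNAs whose name matched a single hairpin. Of the others among the 12, miR-450a-5p was not placed in this way, so that the group may be larger. Between different hairpins of this group, r over the arrays ran from 0.67 to 0.94. The 12 calls are therefore not independent, and whether the fall is a property of the chromosome was not tested. By genotype and by oxygen 0 of the 20 were called. Beside these, miR-222 changed by 1.82, and miR-221, at −0.86, was not called.

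**Figure D5:**
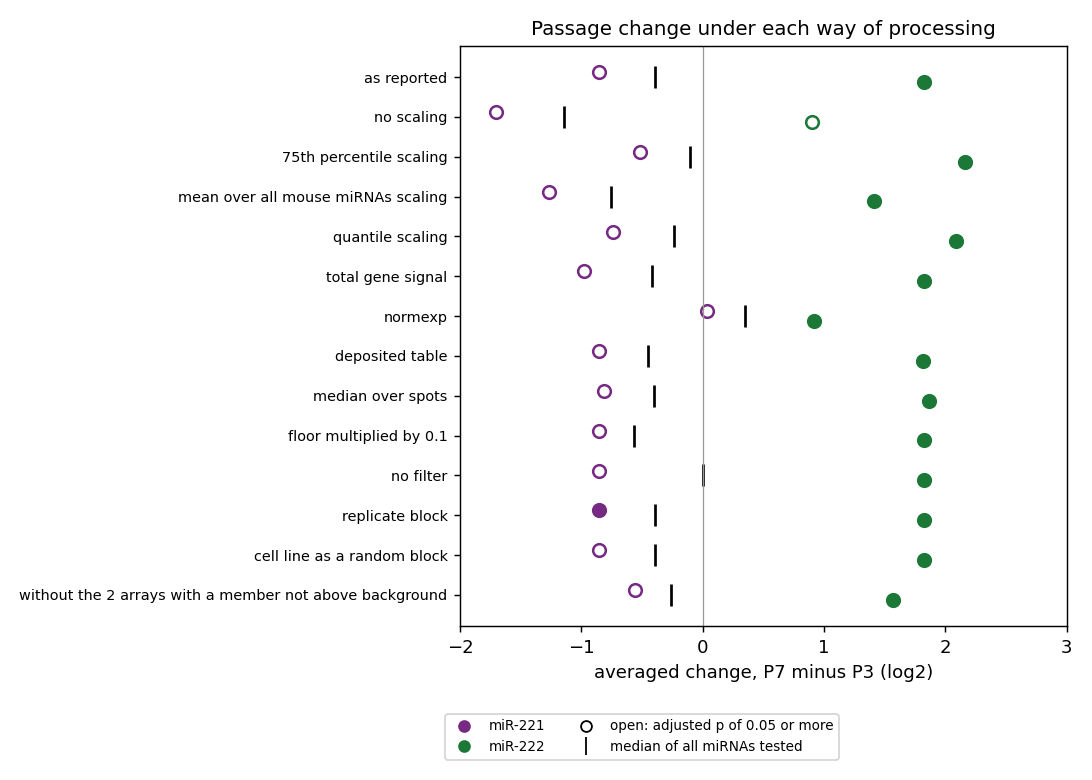
Averaged passage change, P7 minus P3 (horizontal axis, log2), of miR-221 (purple) and miR-222 (green) under each way of processing (vertical axis), filled where the adjusted p was under 0.05, with a bar at the median of all miRNAs tested. In each row miR-222 lies right of miR-221 and of the median; miR-222 is open only without scaling, and miR-221 is filled only with the replicate block.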

How the data were processed

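Total RNA of WT and Ercc1-/- MEFs was hybridized to 16 one-colour arrays in 8 groups of 2. The authors made the intensity values with Agilent Feature Extraction, which subtracts background from each spot, and does not scale between arrays. Its version is 10.7.1.1 per the file headers, whereas the methods of the paper name another version. The deposited series table, of 1 summed intensity per miRNA, was an alternative, as was the software's total signal. Of 13715 spots per array, control and outlier spots were left out. Signals were averaged over the spots of a probe and then over the probes of a miRNA. A probe was above background where the software marked a share of 0.5 or more of its spots so, and a miRNA where any of its probes was. Between 117 and 257 miRNAs were above background on an array. Scaled signals were floored at 2.82 and log2 transformed. The number of arrays limits the precision.

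The 235 miRNAs that were above background in 1 group or more, on both of its arrays, were fitted with limma 3.58.1 in R 4.3.3 (1 mean per group, 8 residual and 3.58 prior degrees of freedom), with Benjamini-Hochberg adjustment within each of 19 comparisons and a threshold of 0.05. The fit and the permutation test were checked on simulated data with independent noise on each array. The check therefore does not cover what arrays share through slides, cell lines or brightness. The members and lists were chosen with earlier results of these data known. Named were the pair, the 5 miRNAs highest and 3 lowest by mean r, and up to 4 called members of each list of related miRNAs. The 6 miRNAs closest to a single member were named after their values were seen. The replicate number is the slide and the scan, and the differences between replicates correlated between groups (median r = 0.61 within P3, 0.81 within P7 and 0.03 between passages). A second fit of every comparison held the replicate number as a block. This block does not hold a replicate difference that is shared within a passage but not between passages. Normexp, planned on the mean spot signal, was run on the median spot signal. Sequences are those of RefSeq on GRCm38.p6. P-values measure the spread between these arrays. They treat arrays of one passage and slide as independent, which the correlations above do not bear out, so that those by passage may be too small.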

Additional observations from a re-analysis of the deposited data

How the results depend on the processing

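The shift of miR-221 minus miR-222 with passage kept its sign under all alternatives tested, between −3.87 and −0.88, nearest 0 with normexp, and stayed past the threshold in those that carry a test. The rise of miR-222 kept its sign in all and its side of the threshold in those with a test but one, 0.90 without scaling (adjusted p = 0.302), and it was between 1.63 and 2.01 when single arrays were left out. The change of miR-221 passed the threshold with the replicate block (−0.86, adjusted p = 0.0343), turned with normexp (0.035) and was between −1.21 and −0.50 without single arrays. Its change by oxygen had no sign: 0.17 with normexp, 0.0023 with the median over spots, between −0.36 and 0.35 without single arrays, and 0.41 without the 2 arrays on which a member was not above background, an alternative chosen after seeing the data. Without these 2 arrays the passage changes were −0.56 and 1.56 and the shift −2.33.

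The genotype difference of miR-221 minus miR-222 turned with normexp (0.029), without those 2 arrays (0.53) and without single arrays (between −0.50 and 0.25). Pearson's r, −0.51, was −0.71 after the replicate block, −0.25 as Spearman's rho, −0.79 over group means, −0.28 and −0.87 within slides, −0.39 without the 2 arrays farthest from the median of miR-221, −0.38 with the 75th percentile, −0.35 with quantile scaling and −0.35 with the total signal. It turned to 0.58 within P3, 0.51 without scaling, 0.14 with the mean over all miRNAs and 0.24 with normexp, and was between −0.65 and −0.44 without single arrays. The median passage change of all miRNAs moved between −1.14 and 0.34 with scaling and background, and relative to it miR-222 rose by 0.57 to 2.39. The number of all miRNAs called with passage, 129, was 44 without scaling, 35 with normexp, 72 with the total signal and 55 without a filter.

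Of 26 comparisons between single groups, 1 was called with the replicate block, 1 with the presumed cell line as a random block and 1 without the 2 arrays. Between 0 and 4 were called without single arrays, 4 without the Ercc1-/- P7 20% O2 array of replicate 1. Single passage changes of miR-221 turned with normexp in Ercc1-/- 20% O2 (0.44) and WT 3% O2 (0.011), and without the 2 arrays in Ercc1-/- 20% O2 (0.44); without single arrays they ran between −2.41 and 0.44, between −1.11 and 0.35, and in WT 20% O2 between −1.61 and 0.10. For Ercc1-/- P7 20% O2 against WT P3 3% O2 miR-221 turned with normexp (0.35), without the 2 arrays (0.32) and without single arrays (between −2.53 and 0.32), and miR-222 without scaling (−0.38). The cause was not tested for any of these. Neither member is among the miRNAs above background on all arrays, so that this filter gave no value. The values within a single slide carry no test. The replicate block changed no other call of either member. Over all 235 miRNAs it raised the number called with passage to 160, that in Ercc1-/- 3% O2 to 43 and that by genotype to 7, against 129, 0 and 4 without it.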
